A study of Mus musculus with 2 samples.

Results

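Axon guidance ligands and receptors were examined across the cell classes of the adult mouse stria vascularis, the secretory epithelium in the lateral wall of the cochlea. Members were all features whose symbol began with Sema, Plxn, Nrp1, Nrp2, Slit1, Slit2, Slit3, Robo, Unc5, Ntn or Eph, or with Efna or Efnb and a digit, or was Dcc, provided that at least 20 unique molecular identifiers (UMIs, each a counted RNA molecule) lay in either count matrix. Of 48816 features, 79 matched the symbols and 63 passed. The passing gene closest to the limit was Epha10 whose MethFix total was 18 and whose RNAlater total was 27 UMIs. The closest failing gene was Sema5b with 18 and 11. Among the 63, Ephx1 and Ephx2 (epoxide hydrolases), Unc50 and Unc5cl matched by their letters and do not belong to the guidance families, which left 59 guidance genes.

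Nuclei were taken from the stria vascularis of CBA/J mice, an inbred strain, at postnatal day 30, and RNA was counted nucleus by nucleus on the 10x Genomics droplet platform. In the MethFix library, isolated nuclei were fixed in methanol; the labels give about 5 to 6 mice, pooled. In the RNAlater library, dissected tissue was kept in the RNA preservative RNAlater overnight before nuclei were isolated; the labels give about 10 mice, pooled. The study's methods give fewer mice for the RNAlater library. The animals carried no allele or treatment that the labels name, and there was 1 library of each kind.

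Guidance cues are secreted or membrane-bound proteins that attract or repel growing axons, migrating cells and vessel sprouts. Slits bind Robo receptors, netrins bind Dcc and Unc5 receptors, semaphorins bind plexins with or without a neuropilin, and ephrins bind Eph receptor kinases on the surface of a neighbouring cell. In mature epithelia the same proteins take part in cell adhesion and in the upkeep of tissue boundaries. The stria has 3 layers, the marginal cells that secrete potassium into endolymph, the melanocyte-derived intermediate cells and the basal cells that seal the tissue. Spindle and root cells lie at its edges, and Reissner's membrane forms the roof of the duct.

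The MethFix matrix held 4748 barcodes and 21027671 UMIs and the RNAlater matrix 3868 barcodes and 17681824 UMIs, with medians of 3469 and 3998.5 UMIs per barcode. Of these barcodes, 3323 were in both matrices. Within them, 89.4% of the MethFix UMIs were also counted in RNAlater for the same gene in the same barcode, and 92.8% for the members. The libraries were therefore counted as 1 sample and no p-value is given. After filtering, 3369 and 2311 nuclei remained, and clusters built without the members were named from marker genes. The 6 classes used for comparison, called marginal-like and so on and shortened below to the bare name, held 1155 and 673 marginal, 851 and 522 intermediate, 750 and 601 basal, 72 and 69 root, 97 and 55 spindle and 155 and 156 Reissner nuclei. All 6 marginal and all 6 basal markers were highest in their own class in both libraries, as were 7 of 8 intermediate markers. The same held for 5 and 6 of 7 root markers, 5 and 4 of 7 spindle markers and 3 of 5 Reissner markers.

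Levels are given as CPM, the UMIs of a gene per 1000000 UMIs of the class, in the MethFix library and then in the RNAlater library. Brackets hold exact 95% Poisson intervals, which cover counting error only. A level was compared across classes within a gene and not between genes, since gene length was not corrected for. A member was called for a class where its level was at least 4-fold above the next of the 6 classes in both libraries, with at least 20 UMIs in the class in each.

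By this rule 11 of the 63 members (17.5%) were called, against 4.91% of the 15625 features with at least 20 UMIs in either matrix. They were Slit3 and Unc5c for marginal, Nrp2, Sema6d, Sema7a and Plxnc1 for intermediate, Slit2 and Ntn5 for basal, and Epha5, Sema3a and Sema3c for Reissner nuclei. No member was called for root or spindle. With the smaller named groups of at least 10 nuclei added to the comparison, Epha5, Sema3a and Sema3c stayed called and the 8 marginal, intermediate and basal calls ended. Endothelial nuclei (10 and 6) were not among these groups, and Sema3c was highest there in both libraries. By class, the background was 0.947% for marginal, 1.14% for intermediate, 1.79% for basal, 0.346% for root, 0.154% for spindle and 0.538% for Reissner. Members with 20 UMIs in their highest class had a median log2 ratio of highest to next class of 0.96 and 0.93, against 0.38 and 0.39 over all features with as many. Of the 59 guidance genes, 35 had at least 20 UMIs in their highest class in each library, and the highest class was the same in both for 34. For 19 of the 35, the highest class exceeded the next by more than counting error in both libraries. The gap could be small, as for Epha7 at 1.27-fold and 1.25-fold in Reissner over root nuclei. The shares over all features that would stand beside the 34 and the 19 were not computed. Most UMIs of the shared barcodes were counted in both libraries, so agreement between the libraries adds little. The highest class is that among the 6, and for 22 of the 34 a smaller or unnamed group was higher still in each library. That count set no least number of UMIs in the group and did not ask for the same group in both libraries. It may include differences within counting error, since 1 UMI was 92.2 CPM in MethFix Schwann and 97.8 CPM in RNAlater pericyte nuclei. The 24 guidance genes with fewer UMIs were 7 Eph receptors, 5 ephrins, 5 semaphorins, 3 netrin receptors, 2 plexins, Ntng1 and Robo2. Of the 4 members that matched by letters, Ephx1 had the highest counts, at 337 and 346 CPM in basal nuclei and 118 and 121 CPM in marginal nuclei.

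**Figure D1:**
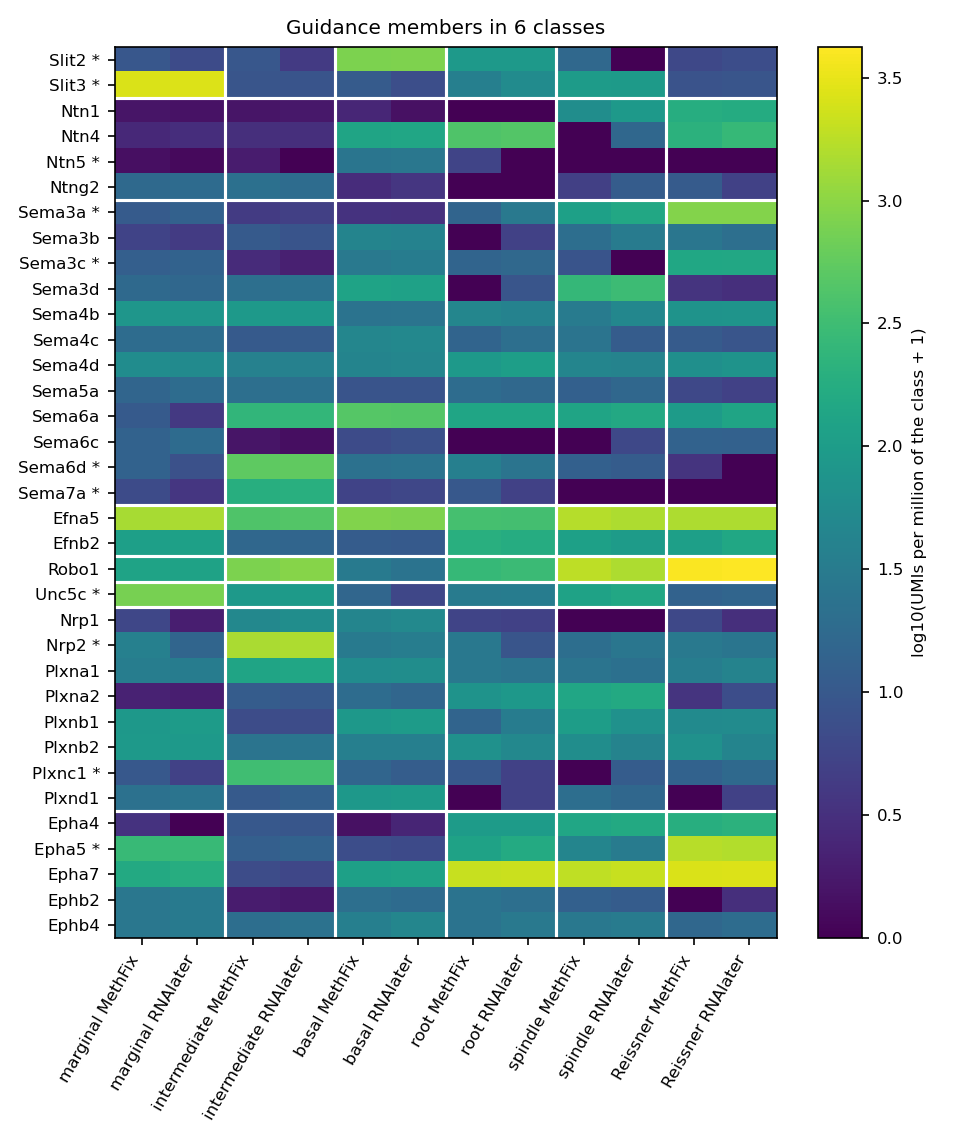
Level of the 35 guidance genes with at least 20 UMIs in their highest class in each library, as log10(CPM + 1), in 6 classes (columns, each with MethFix at left and RNAlater at right). White lines separate slits, netrins, semaphorins, ephrins, roundabouts, netrin receptors, plexins with neuropilins, and Eph receptors from top to bottom, and asterisks mark the 11 called members.

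The slits divided between the outer layers of the stria. Slit3, a secreted Robo ligand (chr11:35121224-35708507 of GRCm38, plus strand), was at 2590 (2545 to 2635) and 2670 (2619 to 2721) CPM in marginal nuclei. The next class was spindle at 97.7 and 93.0 CPM, a gap of 26.5-fold and 28.7-fold, and intermediate and basal nuclei were at 6.34 to 9.98 CPM. With doublets kept, the log2 gap of Slit3, taken as the smaller of the libraries, fell from 4.73 to 3.74. Slit2, its close relative (chr5:47983138-48307733, plus strand), was at 804 (766 to 843) and 842 (804 to 881) CPM in basal nuclei. Root was next at 90.6 and 91.3 CPM, 8.88-fold and 9.22-fold lower, and marginal nuclei were at 8.66 and 5.83 CPM.

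Basal nuclei were not the only source of Slit2. Smaller named groups were higher, bone at 3148 and 3065 CPM in 12 and 10 nuclei and fibrocytes at 1271 and 1545 CPM in 52 and 47 nuclei. Within the basal class, the cluster led by Sorcs3 and Col27a1 held 1254 and 1195 CPM of Slit2, and the other clusters 595 to 835 CPM. Slit3 in the marginal clusters of at least 20 nuclei ranged from 2036 to 3087 CPM. Bone nuclei held 1259 and 1517 CPM of Slit3.

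Robo1 did not have its highest level in the class where either slit was highest. Robo1 was at 4047 (3851 to 4250) and 4212 (4033 to 4398) CPM in Reissner nuclei. Spindle followed at 1806 and 1498, intermediate at 801 and 915, root at 267 and 298, marginal at 127 and 122, and basal nuclei at 29.5 and 22.6 CPM, each step exceeding its counting intervals in both libraries. With a gap of 2.24-fold and 2.81-fold between Reissner and spindle, Robo1 was not called. Spindle nuclei, next in Slit3, and root nuclei, next in Slit2, held more Robo1 than marginal or basal nuclei. Basal nuclei had the highest Slit2 and the lowest Robo1 of the 6 classes, and marginal nuclei with the highest Slit3 had the next lowest Robo1. Within the basal class the order differed, since the Sorcs3/Col27a1 cluster with the most Slit2 also had the most Robo1, at 75.0 and 47.7 CPM against 8.14 to 20.4 CPM in the other clusters. Robo2 stayed between 0 and 17.7 CPM in the 6 classes.

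**Figure D2:**
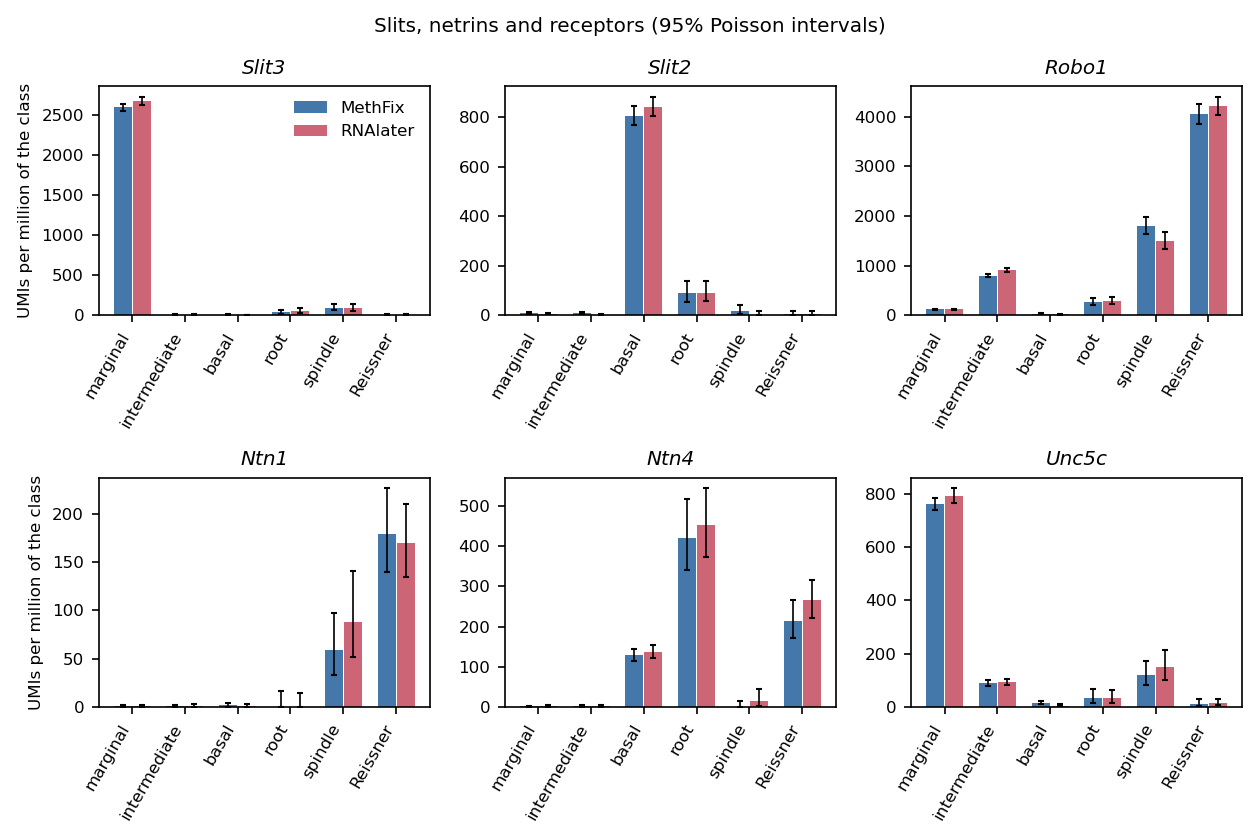
CPM of Slit3, Slit2, Robo1, Ntn1, Ntn4 and Unc5c (each panel on its own scale) in 6 classes, with MethFix in blue and RNAlater in red. Bars are levels and lines are exact 95% Poisson intervals. Slit3 and Unc5c stand out in marginal, Slit2 in basal, Robo1 and Ntn1 in Reissner and Ntn4 in root nuclei.

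Netrins were spread over 4 classes. Ntn1, the classical secreted Dcc and Unc5 ligand, was at 179 (140 to 226) and 169 (135 to 210) CPM in Reissner nuclei and at 58.6 and 87.8 CPM in spindle nuclei, and no more than 1.43 CPM was counted in marginal, intermediate, basal or root nuclei. Ntn4, a laminin-binding netrin, was at 421 and 453 CPM in root, 215 and 265 in Reissner and 128 and 137 CPM in basal nuclei. Ntn5 was at 24.2 (18.0 to 31.9) and 26.3 (19.9 to 34.0) CPM in basal nuclei on 51 and 58 UMIs. In root nuclei 1 Ntn5 UMI was counted in MethFix and 0 in RNAlater, where a count of 0 allows up to 11.9 CPM, so the call of Ntn5 for basal rests on few counts. Ntng2, a membrane-anchored netrin-G, was at 20.5 and 18.3 CPM in intermediate and 16.3 and 17.7 CPM in marginal nuclei, which did not differ beyond counting error.

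Unc5c, a netrin receptor of the repulsive kind, was at 761 (737 to 785) and 791 (764 to 819) CPM in marginal nuclei. Spindle followed at 121 and 150 CPM, 6.28-fold and 5.28-fold lower, and intermediate nuclei at 89.5 and 93.8 CPM. Fibrocytes (1009 and 1033 CPM) and neurons (1296 and 1784 CPM, 19 and 14 nuclei) were higher. Among the 6 classes, Ntn1 and Unc5c therefore had their highest level in different ones. Over all groups, Ntn1 was highest in endothelial nuclei in MethFix and in neurons in RNAlater, and Unc5c in neurons in each library. For Ntn1 these groups were small, and 1 UMI was 68.2 CPM in the endothelial nuclei and 31.3 CPM in the neurons. Unc5b was at 0 to 35.7 CPM and Dcc at 0 to 20.2 CPM in the 6 classes.

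Of the 12 semaphorins with 20 UMIs in their highest class, 4 were highest in intermediate, 3 in basal and 2 in Reissner nuclei, and of 8 plexins and neuropilins 4 were highest in intermediate nuclei. Among those of intermediate nuclei, Sema4b, Sema5a and Nrp1 were not separated from the next class beyond counting error. The share of all features that were highest in intermediate nuclei was not computed. Nrp2, a co-receptor for class 3 semaphorins and for vascular endothelial growth factors (chr1:62703285-62818695, plus strand), was at 1469 (1428 to 1511) and 1513 (1468 to 1559) CPM there, and at 7.94 to 36.9 CPM in the other classes. Plxnc1, the plexin that binds Sema7a, was at 325 (306 to 345) and 349 (328 to 372) CPM. Sema7a, a lipid-anchored semaphorin, was at 186 (172 to 202) and 190 (174 to 207) CPM in the same nuclei, and at no more than 9.06 CPM in any other class. Sema6d, a transmembrane semaphorin (chr2:124089969-124667770, plus strand), was at 534 (510 to 559) and 549 (522 to 577) CPM, 14.7-fold and 23.1-fold above root. Plxna1, a receptor that Sema6d binds, was also highest in intermediate nuclei at 129 and 137 CPM, 2.24-fold and 2.33-fold above basal and so not called.

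In MethFix nuclei whose barcode was not in the RNAlater matrix, the log2 ratio of intermediate to the highest other class was 1.20 for Nrp2 and -0.20 for Plxnc1, so neither was called there, with 296 intermediate and 4 root nuclei (7435 UMIs in root). Outside the 6 classes, Nrp2 was at 1542 and 1579 CPM in the bone group, and Sema6d at 953 and 782 CPM in pericytes (12 and 8 UMIs) and 454 and 688 CPM in neurons. Sema7a was at 165 and 218 CPM in an unnamed cluster led by Wfdc18 and Tmem160, on 3 and 4 UMIs, and Plxnc1 at 123 and 317 CPM in macrophages, on 5 and 8 UMIs. The 3 intermediate clusters of each library all held these members: Nrp2 ranged from 1112 to 1603 CPM, Plxnc1 from 189 to 381, Sema7a from 123 to 233 and Sema6d from 317 to 685 CPM. Melanocytes are driven by the transcription factor Mitf, which binds E-boxes, and the 300-base windows around the start sites of these 4 genes (250 bases before to 50 after, RefSeq, GRCm38.p6) are shown for that reason, with matches to CACGTG or CATGTG on either strand in capitals.
Nrp2 (chr1:62703067-62703366, plus strand): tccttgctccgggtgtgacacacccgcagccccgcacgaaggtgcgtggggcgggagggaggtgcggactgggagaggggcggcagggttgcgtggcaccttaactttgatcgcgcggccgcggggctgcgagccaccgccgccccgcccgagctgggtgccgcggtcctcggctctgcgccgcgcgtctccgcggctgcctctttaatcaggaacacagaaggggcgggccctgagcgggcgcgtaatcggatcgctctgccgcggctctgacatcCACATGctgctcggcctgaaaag
Sema6d (chr2:124089719-124090018, plus strand): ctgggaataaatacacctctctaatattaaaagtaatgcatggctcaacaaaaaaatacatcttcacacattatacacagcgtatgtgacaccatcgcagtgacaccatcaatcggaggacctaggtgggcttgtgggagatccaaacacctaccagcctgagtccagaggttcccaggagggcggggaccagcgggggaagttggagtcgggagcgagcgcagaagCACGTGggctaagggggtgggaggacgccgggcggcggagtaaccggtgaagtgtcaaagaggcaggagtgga
Sema7a (chr9:57939862-57940161, plus strand): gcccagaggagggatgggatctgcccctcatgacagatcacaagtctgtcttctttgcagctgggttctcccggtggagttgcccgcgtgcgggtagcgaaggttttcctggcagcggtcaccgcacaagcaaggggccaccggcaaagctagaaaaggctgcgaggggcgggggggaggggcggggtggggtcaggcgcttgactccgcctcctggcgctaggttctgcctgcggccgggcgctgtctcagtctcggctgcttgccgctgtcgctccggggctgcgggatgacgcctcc
Plxnc1 (chr10:94944796-94945095, minus strand): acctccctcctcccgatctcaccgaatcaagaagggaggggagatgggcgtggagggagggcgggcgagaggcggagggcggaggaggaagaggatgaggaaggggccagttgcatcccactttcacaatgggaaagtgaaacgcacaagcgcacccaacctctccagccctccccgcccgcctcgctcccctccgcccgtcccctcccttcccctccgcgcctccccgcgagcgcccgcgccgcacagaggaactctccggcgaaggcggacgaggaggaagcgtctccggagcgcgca
Nrp2 held 1 match to CATGTG, read on the opposite strand, and the upstream Sema6d window held 1 match to CACGTG. A further window at another Sema6d start site, and those of Sema7a and Plxnc1, held neither. Of all 32851 windows of this length, 20.4% held a match to either motif, against 2 of the 5 windows here and 21.8% of the 170 windows of features called for intermediate. A match is a description of letters and no site of binding.

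Among the 6 classes, the class 3 semaphorins, which are secreted, had their highest levels in Reissner, spindle or basal nuclei. Sema3a, a secreted repellent that acts through Nrp1, was at 901 (810 to 1000) and 891 (809 to 979) CPM in Reissner nuclei. It was at 113 and 150 CPM in spindle nuclei, 7.95-fold and 5.95-fold lower. Sema3c was at 144 (109 to 186) and 147 (115 to 185) CPM in Reissner nuclei, with basal next at 28.0 and 32.6 CPM. Sema3d was highest in spindle nuclei at 262 and 300 CPM, followed by basal at 127 and 118 CPM, and was at 2.52 and 2.04 CPM in Reissner nuclei. Sema6a, a transmembrane semaphorin, was highest in basal nuclei at 466 and 449 CPM, 1.95-fold and 1.80-fold above intermediate. Sema3b (41.8 and 39.4 CPM) and Sema4c (44.7 and 47.5 CPM) had their highest level in basal nuclei too, but without a clear gap to the next class in both libraries. Sema6a reached 2182 and 1967 CPM in the few endothelial nuclei (10 and 6). Over all groups, Sema3c was highest in endothelial nuclei too, and Sema3d in the bone group, in both libraries. Sema3b was highest in Schwann nuclei in MethFix and in the Wfdc18/Tmem160 cluster in RNAlater. In these groups 1 UMI was 92.2 and 54.4 CPM, more than the level of Sema3b in basal nuclei. Sema4b and Sema4d were present in all 6 classes, at 23.3 to 87.7 and 37.9 to 107 CPM.

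Nrp1, the receptor for Sema3a, was low in all 6 classes, with the highest level in intermediate nuclei at 48.3 and 58.7 CPM and in basal nuclei at 44.2 and 49.4 CPM. Plxnb2 had its highest level in marginal nuclei at 90.1 and 90.2 CPM, not clear of the next class in both libraries. Plxnd1, a receptor for Sema3e, was highest in basal nuclei at 83.6 and 93.7 CPM, 3.84-fold and 3.98-fold above marginal and so just below the limit. Plxna2 was highest in spindle nuclei at 141 and 160 CPM. Plxnb1 had its highest class in spindle in one library and in marginal nuclei in the other, with levels of 102 and 67.1 CPM in spindle and 84.4 and 95.3 CPM in marginal.

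Of the ephrins and Eph receptors, 2 and 5 had 20 UMIs in their highest class. Efna5, a lipid-anchored ephrin, was at 1684 and 1529 CPM in spindle, 1502 and 1490 in Reissner, 1391 and 1452 in marginal, 862 and 844 in basal, 422 and 446 in intermediate and 353 and 349 CPM in root nuclei. The top 3 of these did not separate from their neighbours in the order by their counting intervals, so no class was highest for Efna5. Epha7 was at 2628 and 2732 CPM in Reissner, 2070 and 2191 in root and 1880 and 2107 CPM in spindle nuclei, and at 4.92 to 178 CPM in the 3 strial layers. Epha5 was at 1714 (1588 to 1848) and 1594 (1485 to 1710) CPM in Reissner nuclei, 6.13-fold and 5.84-fold above marginal nuclei at 279 and 273 CPM. Epha4 was at 184 and 210 CPM in Reissner, 141 and 160 in spindle and 95.1 and 95.3 CPM in root nuclei, against no more than 8.89 CPM in the strial layers. Efnb2, a transmembrane ephrin, was at 195 and 175 CPM in root nuclei without a clear gap to the next class, and Ephb2 and Ephb4 stayed at or below 44.8 CPM in all classes.

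Root and spindle nuclei, which share several markers, differed in 6 members by the 4-fold rule, with each class taken as a whole. Root was higher for 2 and spindle for 4, where 0.992% of all features were called for root and 0.947% for spindle. Ntn4 was counted with 93 and 114 UMIs in root nuclei and with 0 and 3 in spindle nuclei. In MethFix it was 35.9-fold higher in root with 3 counts set for the 0, and the exact log2 interval began at 4.84. In RNAlater it was 29.2-fold higher, with an interval of 3.28 to 7.17 on the log2 scale. Slit2 was at 90.6 and 91.3 CPM in root against 15.6 and 0 CPM in spindle nuclei. Its call rested on 20 and 23 UMIs in root, at the limit of 20, against 4 and 0 in spindle nuclei. Spindle nuclei exceeded root nuclei in Efna5 by 4.77-fold and 4.38-fold, in Robo1 by 6.76-fold and 5.03-fold and in Sema3a by 8.34-fold and 5.39-fold. Sema3d had 67 and 58 UMIs in spindle against 0 and 2 in root nuclei.

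The root class was made of 2 clusters, which differed in the members they held. One was led by Lgr5 and Rspo2 (34 nuclei in each library) and the other by Prss36 and Srgap1 (38 and 35 nuclei). Lgr5, a root marker, was at 1275 and 1279 CPM in the first and 87.3 and 91.2 in the second, and the marker Epyc was at 382 and 365 against 1281 and 1159 CPM. Of the other root markers, Rspo2, Kcnj16 and Slc26a4 were higher in the first cluster, and Otogl in the second. P2rx2 was at 8.50 and 0 CPM in the first and 19.4 and 36.5 CPM in the second, on few counts. It was higher in spindle nuclei, at 86.0 and 82.6 CPM. Slc26a4 was at 4462 and 4399 CPM in the first and 650 and 730 CPM in the second, below spindle nuclei at 1321 and 1400 CPM. Epha7 was at 3553 (3220 to 3910) and 3598 (3293 to 3924) CPM in the Lgr5/Rspo2 cluster and at 378 (269 to 517) and 365 (261 to 497) CPM in the Prss36/Srgap1 cluster, 9.39-fold and 9.86-fold lower. The Lgr5/Rspo2 cluster was thus above Reissner nuclei (2628 and 2732 CPM), the highest class for Epha7 with root taken as a whole. Epha5 was also higher in the Lgr5/Rspo2 cluster, at 229 and 288 CPM against 0 UMIs in the Prss36/Srgap1 cluster. The gap was 7.88-fold and 10.5-fold with 3 counts set for the 0, and the exact log2 intervals began at 2.58 and 3.03.

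Other members were higher in the Prss36/Srgap1 cluster. Robo1 was at 572 and 684 CPM there and had 0 UMIs in the Lgr5/Rspo2 cluster. With 3 counts set for the 0, the gap was 22.4-fold and 32.5-fold. The exact intervals of the log2 ratio, Lgr5/Rspo2 over Prss36/Srgap1, reached up to -4.14 and -4.69. Slit2 was at 194 and 210 CPM against 0 UMIs, 7.61-fold and 9.95-fold by the same setting, with log2 intervals up to -2.49 and -2.90. Ntn4 was at 883 and 1022 CPM against 2 UMIs in each library. Efna5 was at 660 and 666 CPM against 85.0 and 105 CPM. Efnb2 was higher in the Lgr5/Rspo2 cluster, 3.31-fold and 3.47-fold, and Sema4d and Sema6a did not separate between the clusters beyond counting error. The values given for the root class above are thus averages over clusters that differ in these members. Ntn4 and Slit2 were called for root over spindle through the Prss36/Srgap1 cluster alone. The Lgr5/Rspo2 cluster held 17.0 and 14.1 CPM of Ntn4 and 0 UMIs of Slit2. Spindle nuclei were less than 4-fold above the Prss36/Srgap1 cluster in Efna5, Robo1 and Sema3a (29.1 and 54.7 CPM there). The spindle calls of these members rested on their low levels in the Lgr5/Rspo2 cluster. Srgap1, a GTPase-activating protein of Robo signalling that leads the Prss36/Srgap1 cluster, was among the genes used to cluster.

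**Figure D3:**
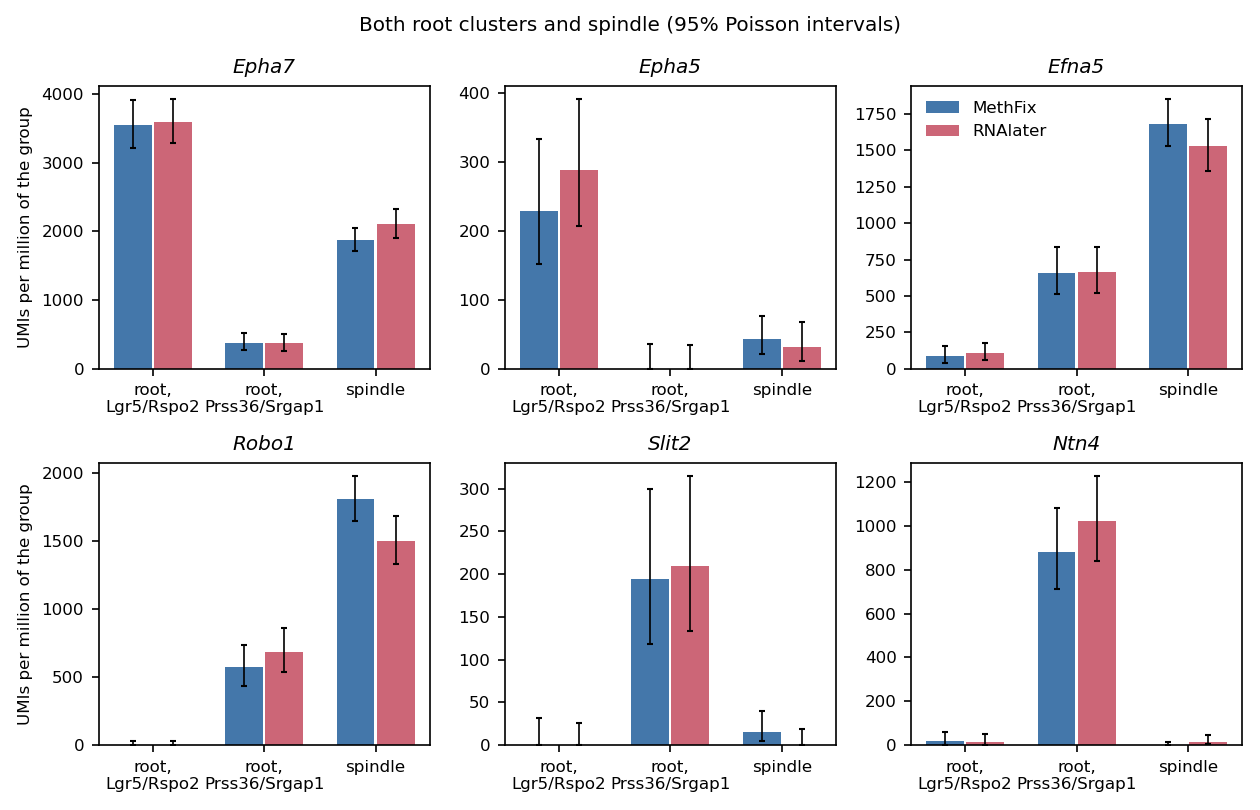
CPM of 6 members in the Lgr5/Rspo2 root cluster, the Prss36/Srgap1 root cluster and spindle nuclei, with MethFix in blue and RNAlater in red, each panel on its own scale. Lines are exact 95% Poisson intervals. Epha7 and Epha5 are higher in the Lgr5/Rspo2 cluster, and Robo1, Slit2, Ntn4 and Efna5 in the Prss36/Srgap1 cluster.

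For known ligand and receptor partners, the class with the highest ligand level was set beside that with the highest receptor level. Of 94 listed pairs, 22 had both partners at 20 UMIs or more in their highest class in each library. The class was the same for 3, all in intermediate nuclei, and different for 18, and in 1 pair (Sema4d and Plxnb1) it changed between libraries. In 7 pairs the highest class of each partner exceeded the next by more than counting error in both libraries. Sema7a with Plxnc1 and Sema6d with Plxna1 shared intermediate nuclei. Slit2 with Robo1, Slit3 with Robo1, Ntn1 with Unc5c, Sema3c with Nrp2 and Sema6a with Plxna2 were highest in different classes. All this holds among the 6 classes only. Over all groups, Slit2, Nrp2, Sema3c, Sema6a, Sema6d and Plxna2 were highest outside the 6 in both libraries. Ntn1 and Unc5c were too, and in RNAlater both were highest in neurons. In the other 14 of these pairs a partner's highest class was not separated from the next, as for Sema5a, which was at 19.9 and 21.1 CPM in intermediate nuclei. These pairs share partners, and a shared or different class does not show contact between cells. The share over pairs of unrelated genes was not computed, so the counts of 3 and 18 describe classes and are no result about partners.

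**Figure D4:**
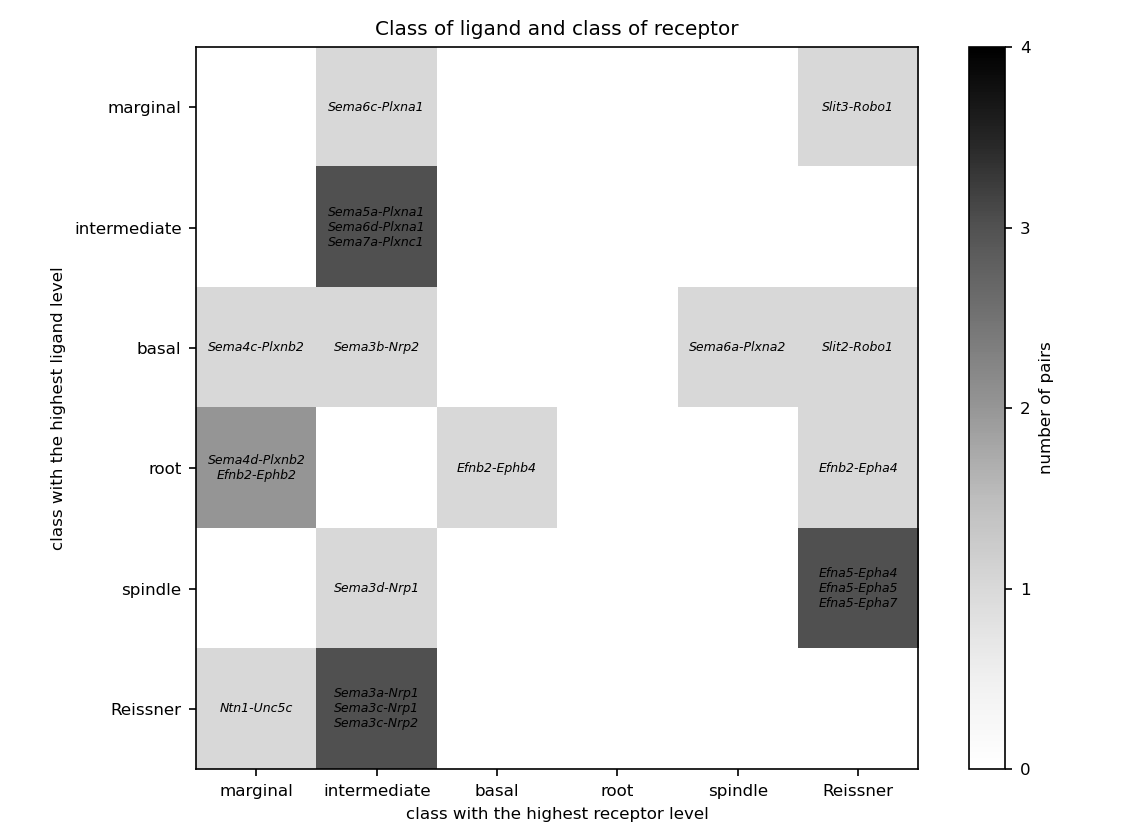
Pairs of ligand and receptor by the class with the highest ligand level (rows) and the highest receptor level (columns), for the 21 pairs whose classes were the same in both libraries. Shading gives the number of pairs in a cell and the names are written in it, with 3 pairs on the diagonal, all in intermediate nuclei.

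Several members were nearly absent from the 6 classes and high in small groups. In an unnamed cluster led by Cdh6 and Tenm2 (38 and 41 nuclei), Robo2 was at 2891 (2543 to 3273) and 2515 (2251 to 2801) CPM, Dcc at 1858 (1581 to 2169) and 1702 (1486 to 1940) CPM and Unc5d at 441 (312 to 606) and 593 (468 to 740) CPM. Nrp1 and Sema5a also exceeded 4-fold over each of the 6 classes there, so 5 of the 10 members with 20 UMIs in that cluster did, where 13.6% of all features with as many did. This cluster was left without a class name because its best score, for basal markers, fell short of the share of the highest basal score that a name required. An unnamed cluster led by Emcn and Cyp7b1 (16 and 10 nuclei) held Robo2 at 2436 and 2279 CPM and Epha3 at 1441 and 1628 CPM. Plxna4 was at 1210 and 1504 CPM and Nrp1 at 963 and 1266 CPM in macrophages (25 and 12 nuclei). Sema5a was at 1700 and 2012 CPM in the bone group, where Sema4d was at 787 and 805 CPM. Of members with 20 UMIs, 2 of 3 in the Emcn/Cyp7b1 cluster, 2 of 2 in macrophages and 2 of 7 in bone passed 4-fold. Over all features with as many UMIs, 29.6%, 38.1% and 31.8% did, so the bone members were not above the share over all features.

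**Figure D5:**
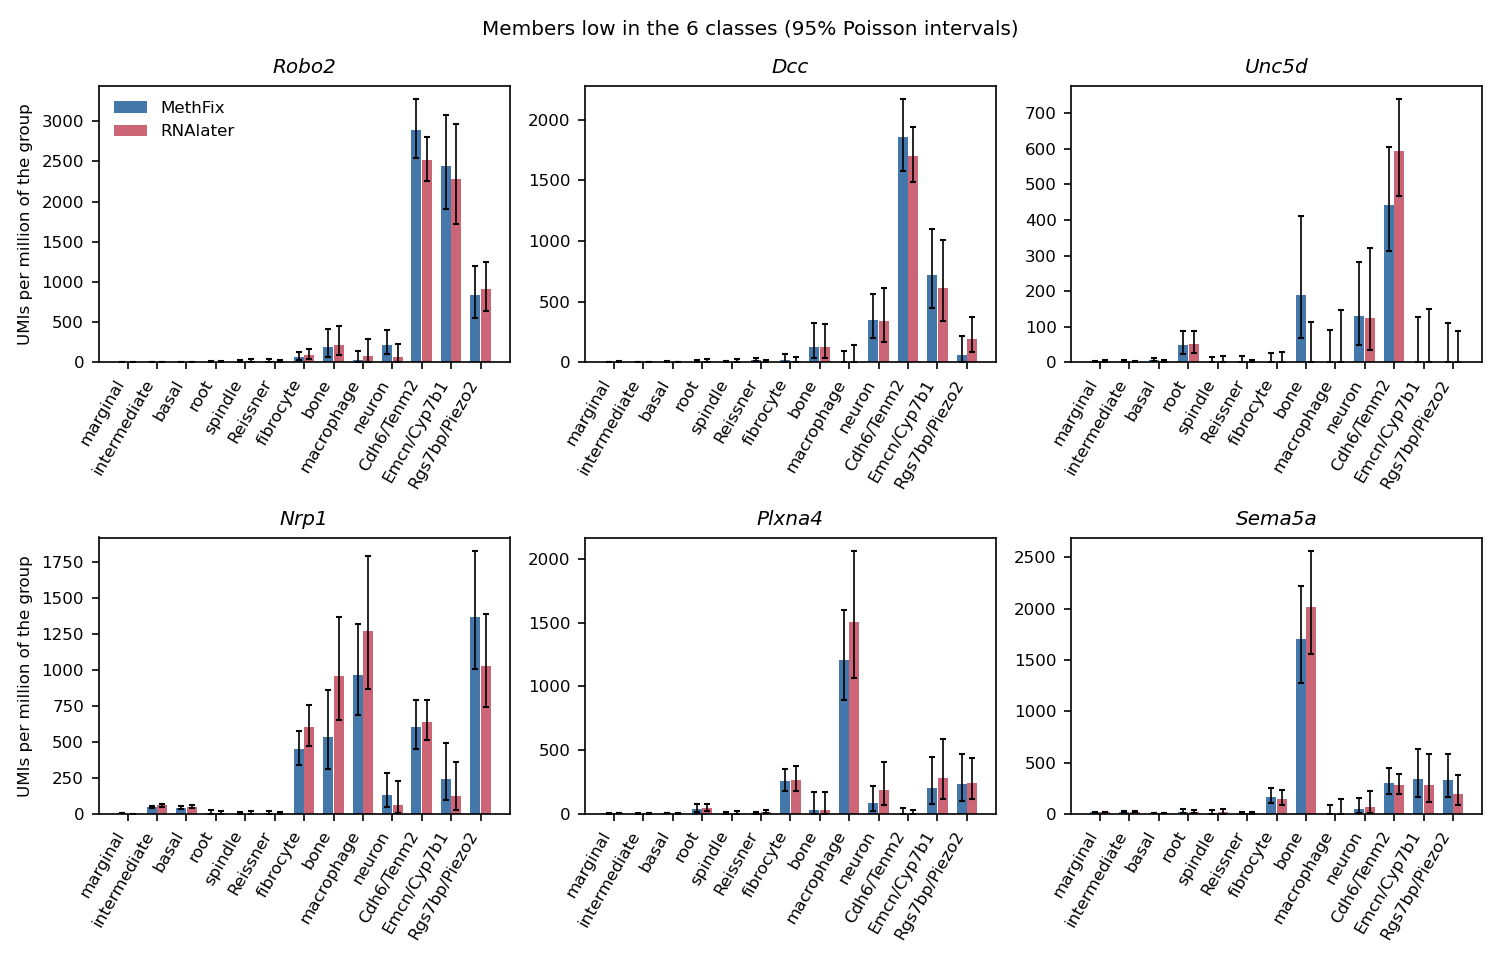
CPM of Robo2, Dcc, Unc5d, Nrp1, Plxna4 and Sema5a in the 6 classes, 4 smaller named groups and 3 unnamed clusters labelled by their leading genes, with MethFix in blue and RNAlater in red and each panel on its own scale. Lines are exact 95% Poisson intervals. Robo2, Dcc and Unc5d are highest in the Cdh6/Tenm2 cluster.

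Of 58 other genes of these pathways, chosen as co-receptors, outside ligands and signalling proteins, 7 were called for a class (12.1%), against 4.91% of all features tested. They were 4 of 25 co-receptors or outside ligands and 3 of 33 signalling proteins. Unlike the members, these 58 genes were not kept out of the clustering, so their share is not independent of the classes. Nrcam, an adhesion protein that binds neuropilins, was at 1977 and 2003 CPM in intermediate nuclei, and Met, a receptor kinase that associates with plexins, at 2946 and 3083 CPM. Flrt2, an Unc5 ligand, was at 1376 and 1364 CPM in Reissner nuclei. Srgap1 was at 1762 and 1703 CPM in root nuclei, and Ablim3, an actin-binding protein, at 1733 and 1707 CPM in basal nuclei. Lrrc4b (intermediate) and Mical2 (basal) completed the 7. Between root and spindle nuclei, Ptprd and Srgap1 were higher in root and Dpysl3 in spindle, where 0.992% of all features were called for root and 0.947% for spindle.

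Since most UMIs of the shared barcodes were counted in both matrices, the closeness of the libraries within a class was largely fixed and is no check between preparations. Over 130 combinations of a member and a class with at least 40 UMIs in sum and none at 0, the median absolute log2 ratio of RNAlater to MethFix was 0.11, as over all features. In 13 of them (10%) the interval excluded 0, against 5.24% of 37942 combinations over all features, and in 6 (4.62%) the ratio was 2-fold or more, against 1.01%. The intervals treat the counts of the libraries as independent, which they were not, so these shares are no error rates. Epha6 in intermediate nuclei (10 and 32 UMIs) was higher in RNAlater, and Unc5c in basal nuclei (31 and 11 UMIs) was lower. Nrp2 in marginal nuclei was at 36.9 CPM in MethFix and 14.4 in RNAlater, and Plxnc1, Sema7a, Sema6d and Sema6a in marginal nuclei were also lower in RNAlater. In MethFix, 107 of the 183 Nrp2 UMIs lay in 51 nuclei of 3 small clusters, whose marker score was highest for marginal and second for intermediate, and the RNAlater marginal class had no cluster of that size. In the marginal clusters of at least 20 nuclei, Nrp2 was at 16.1 (12.7 to 20.1) and 14.4 (10.9 to 18.7) CPM. Plxnc1 was there at 4.44 and 4.05, Sema7a at 2.12 and 2.79, Sema6d at 8.25 and 6.84 and Sema6a at 4.44 and 3.04 CPM, with overlapping intervals for each.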

How the data were processed

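The deposited files were 10x matrices of counts, in which each value is the number of UMIs of a gene in a nucleus, made by the authors with Cell Ranger 3.0.1 on GRCm38, per the labels and submitters' processing notes, which also name Scanpy 1.4.5. From them, genes seen in 3 or more nuclei were kept, as were nuclei with 200 or more genes, no more than 8000 counts and a mitochondrial share up to 10%. Scrublet marked 6.31% of MethFix and 0.773% of RNAlater nuclei as doublets, which were left out. Clustering was done per library in scanpy (4000 variable genes without the members, 30 components, 10 neighbours, Leiden resolution 1 and 1.5). Clusters were named from 17 marker lists, by a score that was set after the clusters were seen. UMIs were summed per class, and intervals were exact (Poisson, or conditional binomial for ratios). The rule for naming genes covered the members called for a class or between root and spindle, and the pairs whose partners both had 20 UMIs. Other members, such as Plxnd1, Ntng2 and Dcc, were named outside this rule. Alternatives included edgeR 4.0.16 and DESeq2 1.42.0 scaling. The members and lists were chosen with earlier results of these data known. Of 63 members, 53 had a RefSeq promoter window.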

Additional observations from a re-analysis of the deposited data

How the results depend on the processing

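The 11 calls for a class were all kept without the upper limit on counts, with doublets kept and at the lower clustering resolutions. They were also kept with the members among the variable genes and under the TMM, DESeq2 and mitochondria-free totals. In each library alone the 11 had to stay called, since the rule already required the gap and the UMIs in each library. Their log2 gaps moved, for Nrp2 from 5.32 to 4.30 without the upper limit and 4.52 with doublets kept, and for Slit3 from 4.73 to 3.74 with doublets kept. The count fell to 6 at 8-fold, and with the named groups of at least 10 nuclei added it fell to 5, of which 3 were among the 11, and Nrp2, Ntn5, Plxnc1, Sema6d, Sema7a, Slit2, Slit3 and Unc5c were lost. With the Cdh6/Tenm2 and Dgkb/Ceacam16 clusters added as well, an alternative chosen after seeing the data, 6 were called, of which 2 were among the 11. In MethFix nuclei whose barcode was not in the RNAlater matrix, 7 were called, of which 6 were among the 11, Plxnc1 turned to -0.20 on the log2 scale, root higher than spindle fell to 0 and spindle higher to 2, and 0 pairs shared a class while 4 did not. Root there had 4 nuclei. Root higher than spindle was 1 without the upper limit, with doublets kept, at 8-fold and at 50 UMIs, and 4 in RNAlater alone and at 2-fold, and spindle higher was 1 at 8-fold. The causes were not tested. Counting error is the limit for the small groups, where 1 UMI in bone nuclei is 31.5 and 31.0 CPM.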

Other observations

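Basal nuclei were not uniform in their guidance genes. In the cluster led by Sorcs3 and Col27a1 (218 and 194 nuclei), Efna5 was at 1339 and 1314 CPM, while the other basal clusters held 604 to 821 CPM. Sema3d went the other way, at 56.7 and 60.1 CPM in that cluster against 125 to 155 CPM in the others. Marginal clusters of at least 20 nuclei held Unc5c at 628 to 872 CPM.

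In the unnamed cluster led by Rgs7bp and Piezo2 (17 and 16 nuclei), Nrp1 was at 1369 and 1028 CPM and Robo2 at 833 and 908 CPM. Sema5a was at 3779 and 1910 CPM in the few Schwann nuclei (4 and 11).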
